A study of Homo sapiens with 18 samples.

Results

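The insulin-like growth factor binding proteins (IGFBPs) are secreted proteins, and 6 genes of this family, IGFBP2, IGFBP3, IGFBP4, IGFBP5, IGFBP6 and IGFBP7, were followed here by their gene symbols. The tables list 38716 gene symbols, and all 6 were among them. Ribosome profiling (Ribo-seq, the sequencing of mRNA fragments protected by ribosomes) and mRNA-seq were measured in 18 libraries of IMR90 cells. These are primary fibroblasts from human fetal lung, with 3 replicates of each assay in each of 3 conditions. Young cells were proliferating at low passage. Old cells were at high passage, in replicative senescence, and received no drug. ICM cells were at low passage and had received inflachromene, which binds the chromatin proteins HMGB1 and HMGB2. Per the study's methods, the replicates were grown independently and each lysate was divided between the assays. All cells were IMR90, so the conditions describe these fibroblasts only.

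IGFBPs bind the growth factors IGF1 and IGF2 outside the cell. They prolong the lifetime of these ligands in the circulation and hold them away from the receptor IGF1R, or deliver them to it once a protease such as pappalysin (PAPPA) has cut the binding protein. IGFBP2 to IGFBP6 bind IGFs with high affinity, and IGFBP6 prefers IGF2. IGFBP7 binds IGFs weakly and is also known to act on its own. Fibroblasts secrete several of these proteins, and IGFBP3, IGFBP5 and IGFBP7 are often measured as secreted products of senescent cells.

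What the genes share can be read from their coding sequence. In the MANE transcripts of GENCODE v44 lifted to GRCh37, 5 of the 6 genes hold, near the start of the coding sequence, the run of cysteine codons (TGT or TGC) that marks the amino-terminal IGF-binding domain: a cysteine codon, any codon, 2 cysteine codons, any 2 codons and a cysteine codon. The coding strand is printed below from 5′ to 3′ with the cysteine codons in capitals. The stretches were found by this pattern, so that the places of the cysteine codons are shared by construction. IGFBP6, which also binds IGFs with high affinity, holds no such run.
IGFBP2: TGCggcTGCTGCtcggtgTGC
IGFBP3: TGCggcTGCTGCctgacgTGC
IGFBP4: TGCggcTGTTGCgccactTGC
IGFBP5: TGCggcTGCTGCatgaccTGC
IGFBP7: TGCggcTGCTGCcctatgTGC
The run begins at codon 84 in IGFBP2, 67 in IGFBP3, 53 in both IGFBP4 and IGFBP5, and 57 in IGFBP7. The coding sequences held 240 (IGFBP6) to 325 (IGFBP2) codons, of which 16 (IGFBP6) to 21 (IGFBP4) encode cysteine.

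Footprints were counted from the start codon onward, and the 6 genes differ in what precedes it. The last 9 bases of the 5′UTR and the first 9 of the coding sequence are shown with the start codon in capitals.
IGFBP2: accgccagcATGctgccg
IGFBP3: gcaggcgtcATGcagcgg
IGFBP4: cgggcggtcATGctgccc
IGFBP5: taagagaagATGgtgttg
IGFBP6: accctgaccATGaccccc
IGFBP7: caccccgccATGgagcgg
A purine stands 3 bases before the start codon in all 6. A G follows it directly in IGFBP5 and IGFBP7 only. The 5′UTR of IGFBP5 is the longest at 774 bases and holds no ATG. IGFBP4 has 286 bases with 1 upstream ATG, followed in frame by a stop codon within the 5′UTR, and IGFBP3 has 132 bases with 1 upstream ATG and no such stop. The 5′UTRs of IGFBP2, IGFBP6 and IGFBP7 hold 104, 51 and 34 bases and no ATG.

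In GRCh37, IGFBP2 (chr2:217497551-217529159, plus strand) and IGFBP5 (chr2:217536828-217560272, minus strand) lie end to end, 7668 bases apart. IGFBP3 lies at chr7:45951844-45961473 (minus strand), 18584 bases from IGFBP1. IGFBP4 lies at chr17:38599702-38613977 (plus strand), IGFBP6 at chr12:53491220-53496129 (plus strand) and IGFBP7 at chr4:57896939-57976551 (minus strand). On the other strand IGFBP7 overlaps an antisense RNA, IGFBP7-AS1, the coding gene POLR2B and a processed pseudogene, and IGFBP5 overlaps the antisense RNA DIRC3-AS1. Since the sources used here do not say that counting used strand, reads where these genes overlap cannot be assigned with certainty.

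The depth of the Ribo-seq libraries decides how firmly the footprint values can be read. The mRNA-seq libraries held 7902430 to 14144500 reads in coding genes. The Ribo-seq libraries held 46239 to 1718520 reads in coding sequences (CDS). Young replicate 1, old replicate 2 and ICM replicate 3 were the shallowest, at 54421, 54708 and 46239 CDS reads, and they also stood apart in other ways. Only 34.4% of the reads of young replicate 1 and 15.0% of those of old replicate 2 lay in the CDS. ICM replicate 3 carried footprints of genes that mRNA-seq found in young but not in ICM cells: over 23 such genes they summed to 707.8 CPM (counts per 1e6 reads of the TMM-scaled library size), against 54.2 and 177 in the other ICM libraries and 1670 to 1882 in young. These sums rest on few reads, 31 in ICM replicate 3 and 11 and 13 in ICM replicates 1 and 2. Young replicate 1 was the highest young Ribo-seq library for 5 of the 6 IGFBPs, all but IGFBP5, and so was old replicate 1, the deepest old library, among the old ones. Footprint changes of the IGFBPs and of the named IGF axis genes were also fitted without the 3 shallowest lysates: young replicate 1, old replicate 2 and ICM replicate 3. This refit leaves out young replicate 1 and keeps old replicate 1. It can thereby raise the old vs young changes of the IGFBPs other than IGFBP5. For IGFBP5 it leaves out the lowest young and the highest ICM library, and can enlarge the falls against young. Old replicate 2 was the lowest old library for IGFBP2, IGFBP3, IGFBP4 and IGFBP7, so leaving it out can enlarge their falls in ICM vs old. The refit gives no independent support for any of these changes.

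In mRNA-seq the labels held in the genes that mark them. CDKN1A, the p53-induced cell cycle inhibitor, averaged 514 ± 10.4 CPM in young, 1551 ± 63.8 in old and 3315 ± 142 in ICM mRNA-seq (SD, n = 3). MKI67, a marker of proliferating cells, averaged 153 ± 2.21, 30.9 ± 2.10 and 0.789 ± 0.293 CPM. Its ICM footprints were less even, at 9.85, 0 and 91.3 CPM, where 3 reads in ICM replicate 3 amount to 64.9 CPM. All 10 fibroblast markers examined were present at 5 CPM or more in every condition, and their summed mRNA level was 32230 to 36510 CPM in young, 30490 to 35380 in old and 13900 to 14410 in ICM. Of the single markers of other cell types, CD3E (T cells) and CDH5 (endothelium) had no mRNA-seq read in any condition, and SFTPC (lung epithelium) had none in young and old. Other genes of the same lists were present. At 5 CPM or more stood 3 of 7 epithelial markers in young and 2 in old and in ICM. The same held for 1 of 6 endothelial and 1 of 5 leukocyte markers in every condition. The summed level of 5 smooth muscle and pericyte markers, 921.5 to 1001 CPM in young and 1205 to 1301 in old, was 123 to 128 in ICM. The summed levels of 7 epithelial markers were 311.8 to 333 CPM in young, 242 to 265 in old and 44.6 to 50.6 in ICM, of 6 endothelial markers 55.5 to 63.9, 94.8 to 107 and 52.1 to 60.4, and of 5 leukocyte markers 19.5 to 21.6, 32.5 to 35.6 and 53.9 to 66.1. The part of these shifts in the IGFBP values was not tested. In bulk libraries, fewer expressing cells and less RNA per cell cannot be told apart.

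Compared per kilobase of coding sequence, IGFBP5 mRNA was the most abundant of the family in young cells. CDS reads per kilobase and per 1e6 CDS reads (RPKM) gave IGFBP5 3744 ± 303, IGFBP4 1436 ± 103, IGFBP7 696 ± 16.4, IGFBP3 298 ± 11.4, IGFBP6 220 ± 9.81 and IGFBP2 197 ± 5.80 in young mRNA-seq (SD, n = 3). No neighbours in this order overlapped. In old cells IGFBP7 stood first at 5385 ± 310 RPKM, clear of IGFBP4 at 2650 ± 268. IGFBP4 and IGFBP5 (2490 ± 305) overlapped, as did IGFBP5 and IGFBP3 (2112 ± 55.3). IGFBP2 (312 ± 17.3) and IGFBP6 (188 ± 6.52) came last. In ICM cells IGFBP4 (2543 ± 93.6) and IGFBP5 (2464 ± 29.8) overlapped at the top, followed by IGFBP7 at 448 ± 20.6, IGFBP3 at 331 ± 35.7, IGFBP6 at 238 ± 21.4 and IGFBP2 at 59.9 ± 1.64.

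The make-up of the family followed these orders. IGFBP5 supplied 56.8% ± 1.08 of the length-scaled mRNA of the 6 genes in young, 18.9% ± 1.87 in old and 40.5% ± 0.301 in ICM (SD, n = 3). IGFBP7 supplied 10.6% ± 0.602, 41.0% ± 3.29 and 7.37% ± 0.405, and IGFBP3 4.53% ± 0.147, 16.1% ± 0.0566 and 5.44% ± 0.576. IGFBP4 supplied 21.8% ± 0.397 in young, 20.1% ± 1.49 in old and 41.8% ± 1.09 in ICM. For IGFBP7, IGFBP3 and IGFBP4 the condition with the largest share did not overlap either of the others. All 6 genes together took 0.498% to 0.560% of the CDS reads of young mRNA-seq libraries, 1.07% to 1.12% in old and 0.478% to 0.495% in ICM.

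In the footprints IGFBP5 led in every condition. Its footprint density was 12030 ± 809 RPKM in young, 9352 ± 951 in old and 9294 ± 1193 in ICM, above every other member in every library. That was 82.2% ± 4.26 of the length-scaled footprints of the family in young, 50.1% ± 6.57 in old and 73.8% ± 3.08 in ICM. IGFBP7 and IGFBP3, which overlapped, came next in old cells at 4174 ± 582 and 3102 ± 586 RPKM. IGFBP4 came next in ICM cells at 1590 ± 129 RPKM. The family took 1.17% to 1.21% of the footprints in young libraries, 1.47% to 1.60% in old and 0.909% to 1.12% in ICM.

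**Figure D1:**
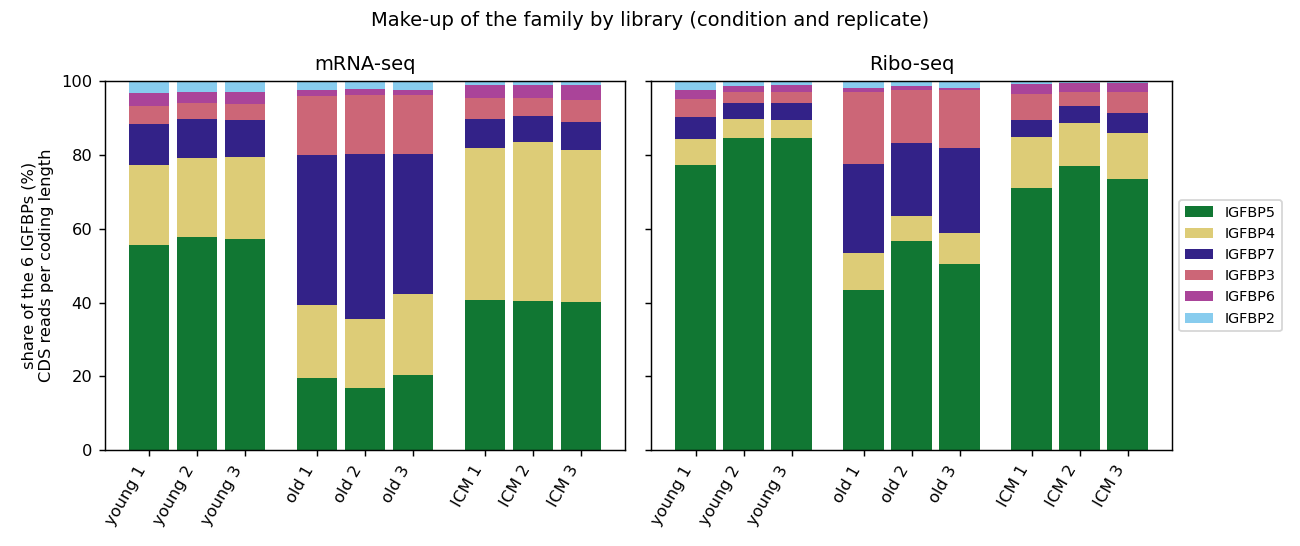
Share of each IGFBP in the summed CDS reads per coding length of the 6 genes (y axis, %), for each mRNA-seq (left) and Ribo-seq (right) library (x axis, condition and replicate). IGFBP7 and IGFBP3 expand in the old libraries in both assays, from 10.6% and 4.53% of the family mRNA in young to 41.0% and 16.1%, while IGFBP5 keeps the largest share of footprints in all 9 Ribo-seq libraries.

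The comparison of old with young cells asks what changed in replicative senescence. In mRNA-seq, IGFBP2, IGFBP3, IGFBP4 and IGFBP7 rose and IGFBP5 and IGFBP6 fell (6 of 6 called at an adjusted p under 0.05 with edgeR's quasi-likelihood test). Over all 13173 genes tested in this comparison 66.1% were called (32.4% higher, 33.7% lower), so that a call alone sets no gene apart here. The median log2 change of the 6 was 0.80, beside -0.01 over all genes. In footprints the same 4 genes rose, and IGFBP5 and IGFBP6 did not pass the test (4 of 6 called, with 36.3% called among 4643 genes, 19.3% higher and 17% lower; median log2 change 1.07, beside 0.02 over all genes). Old and young replicates did not overlap for 6 of the 6 in mRNA-seq (67.1% of all genes) and 5 of the 6 in Ribo-seq (38.9%).

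IGFBP7 and IGFBP3 moved furthest. IGFBP7 stood at 416, 440 and 435 CPM in the young mRNA-seq libraries and at 3385, 3580 and 3249 CPM in the old ones. Its mRNA was 7.91-fold higher in old cells (95% interval 7.20 to 8.69), or 2.98 on the log2 scale (SE 0.07, edgeR adjusted p 2.41e-19), which placed it in the top 1.03% of the genes tested. The groups lay far apart, with the lowest old library above the highest young library.

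IGFBP7 footprints followed. They stood at 753, 596 and 627 CPM in young and at 4613, 3260 and 4491 CPM in old, again without overlap. The log2 change was 2.72 (SE 0.18, edgeR adjusted p 3.65e-14) and 2.91 (adjusted p 1.15e-19) with the 3 lysates left out.

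IGFBP3, the main carrier of IGFs in the circulation, stood at 441, 450 and 445 CPM in young mRNA-seq and at 3212, 3237 and 3163 CPM in old. This was a 7.19-fold rise (95% interval 6.58 to 7.87), or 2.85 on the log2 scale (SE 0.07, edgeR adjusted p 2.41e-19). Its footprints stood at 673, 417 and 450 CPM in young and at 3880, 2475 and 3124 CPM in old, which is 2.79 on the log2 scale (SE 0.20, edgeR adjusted p 4.81e-13) that placed it in the top 0.280% of genes. Without the 3 lysates that value was 3.03.

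IGFBP4, an inhibitory binding protein that PAPPA cuts, rose less and in both assays. Its mRNA stood at 1882, 1929 and 1834 CPM in young and at 3636, 3480 and 3438 CPM in old, a rise of 0.90 on the log2 scale (SE 0.06, edgeR adjusted p 2.66e-11). Footprints stood at 852, 630 and 590 CPM in young and at 1755, 1046 and 1507 CPM in old, with no overlap (log2 change 1.21, SE 0.18, edgeR adjusted p 2.98e-06; 1.44 without the 3 lysates).

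IGFBP2 mRNA stood at 133, 137 and 136 CPM in young and at 247, 200 and 214 CPM in old, a rise of 0.70 on the log2 scale (SE 0.07, edgeR adjusted p 2.16e-08). Footprints, at 376, 190 and 186 CPM in young and at 405, 262 and 394 CPM in old, overlapped: young replicate 1, on 19 reads, lay above old replicate 2, on 13. The log2 change of 0.93 (SE 0.20, edgeR adjusted p 0.000546) was 1.11 (adjusted p 2.57e-06) with the 3 lysates left out. It did not pass with DESeq2 (0.70, adjusted p 0.183), without young replicate 2 (adjusted p 0.117), without young replicate 3 (adjusted p 0.162) or after thinning to the shallowest library (0.21, adjusted p 0.773).

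IGFBP5 mRNA stood at 15784, 17433 and 17384 CPM in young and at 10991, 10890 and 12465 CPM in old, lower in every old library (log2 change -0.56, SE 0.07, edgeR adjusted p 7.60e-07). The footprints, at 9745, 11108 and 11204 CPM in young and at 8033, 9034 and 9482 CPM in old, lay lower in every old library than in any young library. Their log2 change of -0.28 (SE 0.14) did not pass the test (edgeR adjusted p 0.131). With the 3 lysates left out it did, at -0.33 (adjusted p 0.0125), and likewise without young replicate 1 alone (-0.39, adjusted p 0.0447). Young replicate 1, left out in both fits, was the lowest young library for this gene.

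IGFBP6 had the smallest fitted mRNA change of the 6. Its mRNA stood at 127, 119 and 129 CPM in young and at 113, 105 and 101 CPM in old, a difference of -0.23 on the log2 scale (SE 0.07, edgeR adjusted p 0.00520). Counting CDS reads only, this change was -0.15 (adjusted p 0.0776). Footprints stood at 258, 193 and 197 CPM in young and at 176, 141 and 131 CPM in old without overlap, and the log2 change of -0.34 did not pass (SE 0.20, edgeR adjusted p 0.172; -0.28, adjusted p 0.264, without the 3 lysates).

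**Figure D2:**
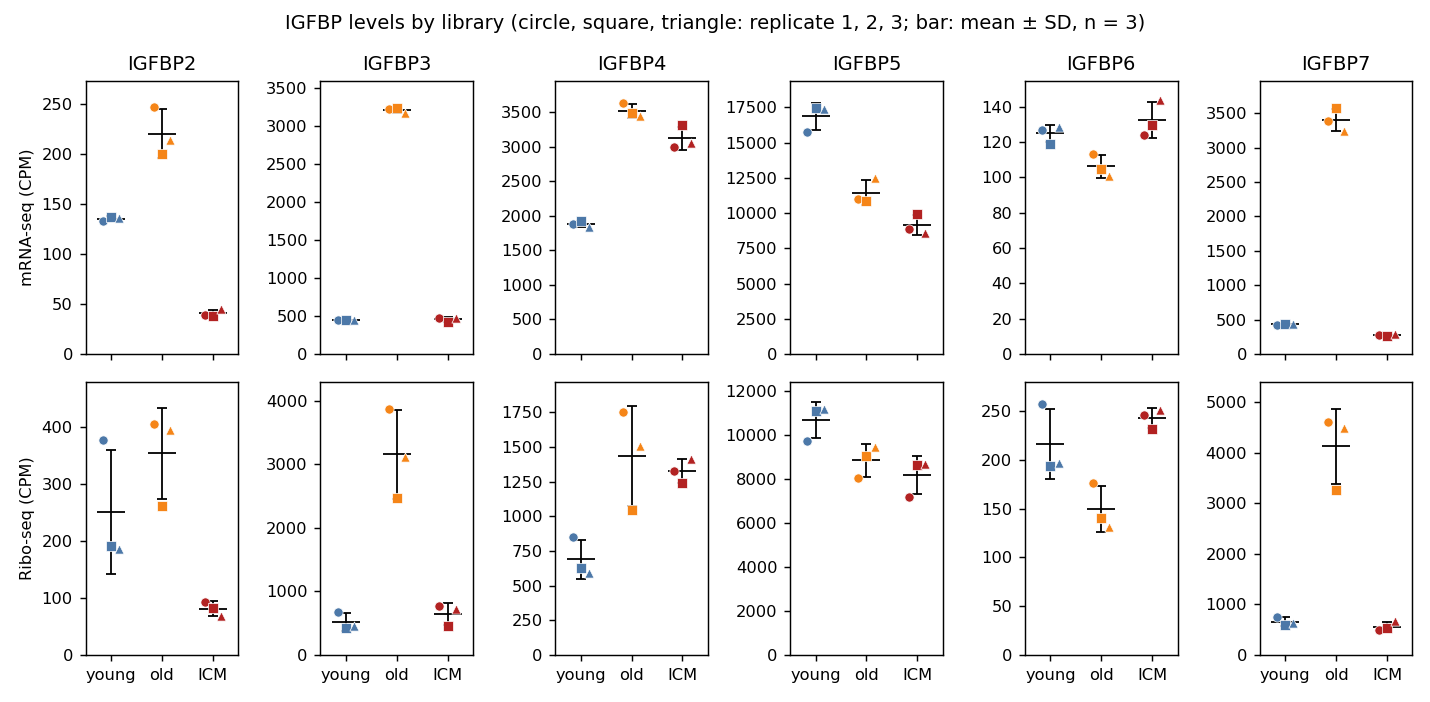
Level of each IGFBP in every library (y axis, CPM from 0) for mRNA-seq (top) and Ribo-seq (bottom) in young, old and ICM cells; symbols mark replicates, and the bar is the mean ± SD (n = 3). IGFBP3 and IGFBP7 are high in the old libraries alone, IGFBP2 is lowest in ICM, IGFBP4 is above young in both other conditions, and IGFBP5 mRNA is below young in both.

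ICM was compared with young to see what differed under inflachromene. These comparisons use the same young libraries as those above. In mRNA-seq IGFBP4 rose, IGFBP2, IGFBP5 and IGFBP7 fell, and IGFBP3 and IGFBP6 did not pass the test (4 of 6 called, with 71% called among 13173 genes, 34.9% higher and 36.1% lower; median log2 change -0.31, beside -0.01 over all genes). In footprints IGFBP4 rose and IGFBP2 and IGFBP5 fell (3 of 6 called, with 26.6% called among 4643 genes, 13.7% higher and 12.9% lower; median log2 change 0.02, near 0 over all genes). Replicates did not overlap for 4 of the 6 in mRNA-seq (74.5% of all genes) and 3 of the 6 in Ribo-seq (30.4%).

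IGFBP2 fell furthest. In ICM its mRNA stood at 39.2, 38.4 and 44.5 CPM, below every young library, a level 0.301 of that in young (95% interval 0.270 to 0.336; log2 change -1.73, SE 0.08, edgeR adjusted p 1.28e-14). The footprints stood at 93.6, 81.8 and 68.5 CPM, also below every young library, and rest on 19, 6 and 3 reads. Their log2 change was -1.21 (SE 0.34, edgeR adjusted p 0.00694), and -1.15 (adjusted p 0.00721) without the 3 lysates.

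IGFBP4 mRNA stood at 2999, 3313 and 3047 CPM in ICM, above every young library (log2 change 0.73, SE 0.06, edgeR adjusted p 6.18e-10). The footprints stood at 1325, 1241 and 1416 CPM and did not overlap those of young cells either. They rose by 1.03 on the log2 scale (SE 0.20, edgeR adjusted p 0.000126), and by 0.99 without the 3 lysates.

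IGFBP5 mRNA stood at 8845, 9970 and 8612 CPM in ICM, below every young library, a level 0.542 of that in young (95% interval 0.4899 to 0.5997; log2 change -0.88, SE 0.07, edgeR adjusted p 4.34e-10). Counting CDS reads only, the change was -0.63. The footprints stood at 7169, 8648 and 8700 CPM, below every young library, and changed less (log2 change -0.40, SE 0.15, edgeR adjusted p 0.0416). That footprint call was lost with DESeq2 (adjusted p 0.0520), with only the 2 conditions in the fit (0.0746), with a mean of at least 50 counts required (0.0760), after thinning (0.109), and without young replicate 2 (0.120), young replicate 3 (0.131) or ICM replicate 1 (0.204). With the 3 lysates left out it was -0.62 (adjusted p 3.74e-05). For this gene that removes the lowest young and the highest ICM library, so it gives no independent support.

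IGFBP7 mRNA stood at 278, 256 and 289 CPM in ICM, below every young library (log2 change -0.65, SE 0.07, edgeR adjusted p 1.02e-08). The direction was opposite to that in old cells. Its footprints, at 483, 532 and 662 CPM, overlapped those of young cells (log2 change -0.25, SE 0.21, edgeR adjusted p 0.414; -0.39, adjusted p 0.0759, without the 3 lysates).

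IGFBP3 mRNA stood at 470, 422 and 473 CPM in ICM and overlapped young (log2 change 0.03, SE 0.06, edgeR adjusted p 0.677; 95% interval of the fold 0.938 to 1.11). Its footprints, at 764, 450 and 731 CPM, overlapped too (log2 change 0.50, SE 0.23, edgeR adjusted p 0.0981), and passed only narrowly with the 3 lysates left out (0.49, adjusted p 0.0494) or with a mean of at least 50 counts required (0.56, adjusted p 0.0482). IGFBP6 mRNA stood at 124, 129 and 144 CPM (log2 change 0.08, SE 0.07, edgeR adjusted p 0.280) and its footprints at 246, 232 and 251 CPM (log2 change 0.28, SE 0.25, edgeR adjusted p 0.433; 0.21, adjusted p 0.603, without the 3 lysates), both overlapping young.

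The direct comparison of ICM with old cells sets the drug-treated beside the replicatively senescent state. Drug and passage differ together here, so that their parts cannot be told apart. All 6 mRNAs were called, IGFBP6 higher and the other 5 lower in ICM (63.3% called among 13173 genes, 30.7% higher and 32.6% lower; median log2 change -1.38, beside -0.01 over all genes). Footprints of IGFBP2, IGFBP3 and IGFBP7 fell (3 of 6 called, with 13.4% called among 4643 genes, 5.79% higher and 7.62% lower; median log2 change -1.16, beside -0.02 over all genes). Replicates did not overlap for 6 of the 6 in mRNA-seq (66.3% of all genes) and 4 of the 6 in Ribo-seq (22.9%).

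IGFBP7 mRNA in ICM was 0.0806 of its level in old cells (95% interval 0.0732 to 0.0888; log2 change -3.63, SE 0.07, edgeR adjusted p 2.44e-21), and its footprints 0.128 (0.0978 to 0.168; log2 change -2.97, SE 0.20, edgeR adjusted p 8.08e-14). IGFBP3 followed at -2.82 in mRNA-seq (SE 0.07, edgeR adjusted p 6.29e-20) and -2.29 in Ribo-seq (SE 0.21, edgeR adjusted p 1.33e-10). IGFBP2 changed by -2.43 in mRNA-seq (SE 0.08, edgeR adjusted p 3.14e-17) and -2.14 in Ribo-seq (SE 0.32, edgeR adjusted p 3.57e-06). For these 3 genes every ICM library lay below every old library in both assays. Without the 3 lysates the footprint changes were -3.30 for IGFBP7, -2.54 for IGFBP3 and -2.25 for IGFBP2. Old replicate 2, left out there, was the lowest old library for these 3 genes.

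The other 3 genes differed by little between ICM and old cells. IGFBP6 mRNA was higher in ICM by 0.32 on the log2 scale (SE 0.07, edgeR adjusted p 0.000352), and its footprints by 0.63, which did not pass (SE 0.26, edgeR adjusted p 0.105) unless a mean of at least 50 counts was required (0.74, adjusted p 0.0324), and 0.49 (adjusted p 0.241) without the 3 lysates. IGFBP5 mRNA changed by -0.32 (SE 0.07, edgeR adjusted p 0.000603) and IGFBP4 mRNA by -0.17 (SE 0.06, edgeR adjusted p 0.0192). With CDS reads only, both calls were lost, at -0.12 (adjusted p 0.255) for IGFBP5 and -0.16 (adjusted p 0.0955) for IGFBP4, and that of IGFBP4 was also lost without old replicate 1 (adjusted p 0.0742), ICM replicate 1 (0.110) or ICM replicate 3 (0.0787). Footprints of IGFBP5 (-0.12, SE 0.15, adjusted p 0.668) and IGFBP4 (-0.19, SE 0.19, adjusted p 0.583) did not pass, and with the 3 lysates left out that of IGFBP4 did (-0.46, adjusted p 0.0353) and that of IGFBP5 did not (-0.29, adjusted p 0.0758). For IGFBP4 the lysates left out include the lowest old and the highest ICM library.

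**Figure D3:**
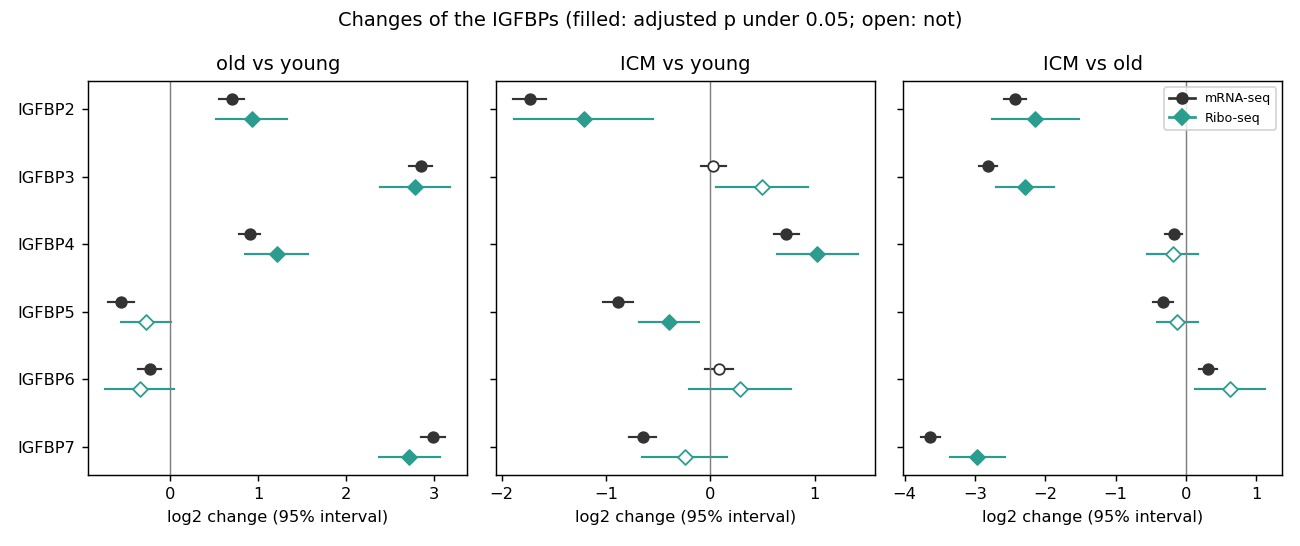
Fitted log2 change of each IGFBP (x axis, with 95% interval) in old vs young, ICM vs young and ICM vs old cells, for mRNA-seq (circles) and Ribo-seq (diamonds); filled symbols passed an adjusted p of 0.05 in edgeR. IGFBP3 and IGFBP7 sit near 3 in old vs young in both assays and below -2 in ICM vs old, whereas IGFBP5 and IGFBP6 stay within 1 of zero throughout.

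Whether ribosomes were loaded differently on these mRNAs was asked through translational efficiency, the footprint level relative to the mRNA level, for which the assay-by-condition interaction was tested. None of the 6 genes was called in ICM vs young (2.45% called among 4618 genes), in old vs young (1.45%) or in ICM vs old (0.26%) with edgeR. At an unadjusted p under 0.05 there were 1, 1 and 2 members in these comparisons, and DESeq2 called 1, 0 and 0. The shares of all genes that pass in these 2 ways were not counted, so these counts set no member apart.

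The gene nearest to a call was IGFBP5. The ratio of its footprint CPM to its mRNA CPM was 0.617, 0.637 and 0.644 in young, 0.731, 0.830 and 0.761 in old and 0.811, 0.867 and 1.01 in ICM. The young ratios lay below all others. In ICM vs young the fitted change was 0.49 (SE 0.16, edgeR adjusted p 0.0919) and DESeq2 gave 0.46 (adjusted p 0.0278). It was 0.22 (adjusted p 0.551) when only CDS reads of mRNA-seq were counted and 0.26 (adjusted p 0.218) without the 3 lysates. In old vs young it was 0.35 (SE 0.16, edgeR adjusted p 0.321).

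IGFBP7 had ratios of 1.81, 1.35 and 1.44 in young, 1.36, 0.911 and 1.38 in old and 1.74, 2.08 and 2.29 in ICM. The ICM ratios lay above the old ones, with a fitted change of 0.61 in ICM vs old (SE 0.21, edgeR unadjusted p 0.00684, adjusted p 0.237). In ICM vs young all 6 fitted changes were above 0, from 0.23 to 0.55, with a median of 0.44 beside 0.06 over all genes, and none passed the adjusted test. IGFBP4 changed sign there after thinning (-0.05) and IGFBP6 without a filter on low counts (-0.06).

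The deposited columns also place each read in the 5′UTR, CDS or 3′UTR, which the comparisons above did not use singly. IGFBP5 differs from the rest of the family in mRNA-seq: 79.4% ± 0.948 of its reads lay in the 3′UTR in young, 79.6% ± 2.06 in old and 76.4% ± 0.897 in ICM, and 11.5% to 13.4% on average in the CDS (SD, n = 3). Its 3′UTR is 4646 bases long and its coding sequence 816. IGFBP3 and IGFBP4 had 51.4% to 57.4% of their reads in the 3′UTR on average, and IGFBP2, IGFBP6 and IGFBP7 had 79.0% to 91.3% in the CDS. Over all coding genes 62.6% to 64.5% lay in the CDS.

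Footprints in the 5′UTR of IGFBP5 took a larger share in young than in old or ICM cells. They made up 10.5%, 9.87% and 8.62% of the young libraries' footprints on the gene, from 638.5, 7863.5 and 19546.5 reads. In old cells the shares were 3.26%, 1.88% and 1.36%, and in ICM 0.875%, 2.86% and 4.62%. No young library overlapped either group (exact two-sided permutation test, p = 0.1 for each, the smallest that 3 against 3 can give). For how many of all genes the 5′UTR shares separate in this way was not computed. The exact binomial 95% intervals of the young shares, the widest 8.23% to 13.1%, also lay above those of all old and ICM libraries, the highest of which reached 7.13%.

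IGFBP4 did not overlap between young and the other conditions either (exact two-sided permutation test, p = 0.1 for each), with 5.88%, 4.31% and 3.70% in young, 0.811%, 1.11% and 0.515% in old and 0 of 274, 93 and 61.5 reads in ICM, which allows up to 1.34%, 3.89% and 5.78% (exact binomial). In IGFBP3 the young shares of 7.59%, 4.73% and 1.24% lay above the old ones of 0.575%, 0% and 0.575%, and overlapped the ICM ones of 1.24%, 2.94% and 0% (exact two-sided permutation test, p = 0.1 and 0.2). Counts were low, at 3, 18 and 36 reads for IGFBP4 in young. Over all coding genes the 5′UTR share was 10.2%, 3.70% and 2.78% in young, 4.89%, 44.7% and 13.8% in old and 2.43%, 5.36% and 4.15% in ICM, so that it did not fall in old cells. This total pools the reads of all genes and cannot show how often the share of a single gene separates. IGFBP2 and IGFBP6 had 0.0583% or less of their footprints in the 5′UTR on average, and IGFBP7 1.67% ± 2.89 in young, 0.316% ± 0.267 in old and 0% in ICM (SD, n = 3). Intervals cover counting error only.

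**Figure D4:**
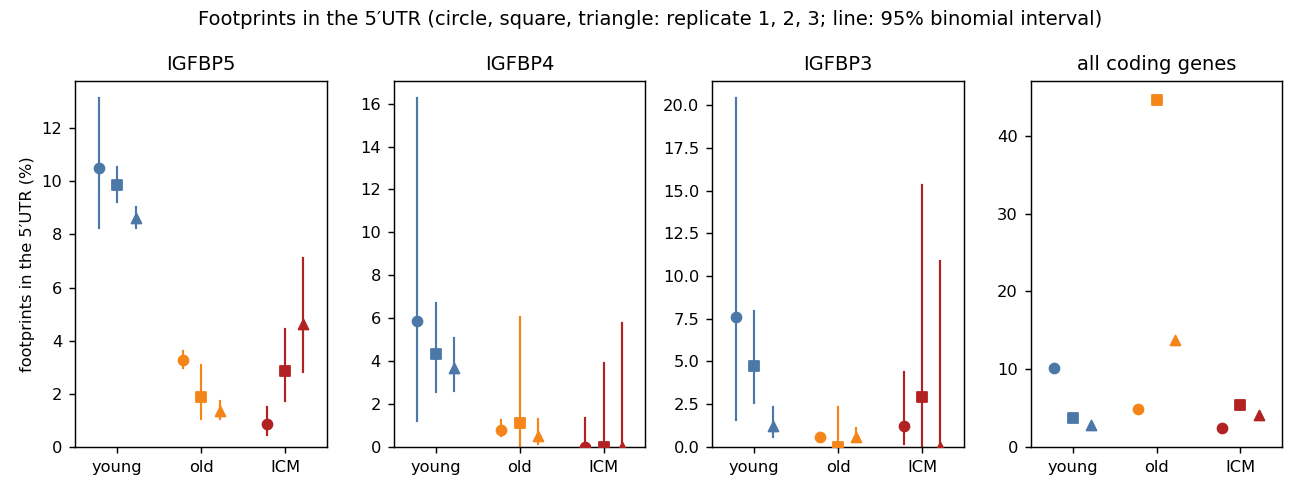
Share of a gene's footprints that lay in its 5′UTR (y axis, %) in each young, old and ICM Ribo-seq library for IGFBP5, IGFBP4, IGFBP3 and all coding genes together; lines are exact binomial 95% intervals, and each panel has its own scale. The young IGFBP5 shares, 8.62% to 10.5%, lie above all old and ICM shares, while over all coding genes the highest share, 44.7%, is in old replicate 2.

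Other genes of the IGF axis were read beside the IGFBPs. A list of 29 genes was followed: ligands, receptors, further binding proteins, proteases that cut IGFBPs, their inhibitors, cell surface partners, and adaptors and kinases of receptor signalling. In mRNA-seq 25 were tested and 19 were called in old vs young (14 higher, 5 lower; median log2 change 0.30), 21 in ICM vs young (11 higher, 10 lower; median 0.04) and 18 in ICM vs old (8 higher, 10 lower; median -0.08). In Ribo-seq 14 were tested, and 5 (all higher; median 0.46), 6 (all higher; median 0.35) and 2 (1 higher, 1 lower; median -0.06) were called in the same order of comparisons. Over all genes tested, 66.1%, 71% and 63.3% were called in mRNA-seq and 36.3%, 26.6% and 13.4% in Ribo-seq, in the same order. A call alone therefore does not set these genes apart. IGFBP1, IGFBPL1, IGFALS and FOXO1 had too few reads for the test, with 7 mRNA-seq reads of IGFBP1 over all 9 libraries.

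IGF2, a ligand of the whole family and the one IGFBP6 prefers, was high in the same condition as IGFBP3 and IGFBP7. Its mRNA stood at 42.3, 47.8 and 46.2 CPM in young, at 339, 281 and 354 CPM in old, and at 6.38, 7.31 and 8.14 CPM in ICM. The log2 change was 2.83 in old vs young (SE 0.09, edgeR adjusted p 1.99e-17), -2.65 in ICM vs young (SE 0.12, edgeR adjusted p 5.78e-15) and -5.48 in ICM vs old (SE 0.11, edgeR adjusted p 2.25e-21). No library of 1 condition overlapped another. Its footprints rose in old cells (log2 change 2.24, SE 0.33, edgeR adjusted p 2.26e-06), from 0, 10 and 42 reads in young and 172, 4 and 42 in old, and that call was lost without old replicate 1 (1.963, adjusted p 0.0597). In ICM vs old they fell (-4.98, SE 0.90, edgeR adjusted p 9.50e-05), with a single read in the 3 ICM libraries. In ICM vs young their change of -2.74 (SE 1.24) did not pass (edgeR adjusted p 0.0994), and it did without ICM replicate 3 (adjusted p 0.0204), which leaves no ICM read. Fitted changes against libraries at 0 depend on the prior count. IGF2 can share reads with its read-through transcript.

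IGF1 was near the limit of detection, at 0.436 to 1.24 CPM in young, 1.33 to 1.67 in old and 0.463 to 0.976 in ICM, with no footprint in any library. Its change in old vs young was 0.95 (SE 0.35, edgeR adjusted p 0.0216), which did not pass with DESeq2 (adjusted p 0.0854) or without young replicate 2 (0.164), young replicate 3 (0.0525) or old replicate 3 (0.0590). IGF1R, the signalling receptor, rose slightly in old mRNA-seq (0.35, SE 0.07, edgeR adjusted p 0.000100) and was at -0.01 in ICM vs young (adjusted p 0.948). IGF2R, which takes up and degrades IGF2, rose in mRNA in old (0.46, SE 0.09, edgeR adjusted p 5.80e-05) and ICM cells (0.72, SE 0.09, edgeR adjusted p 1.21e-07), and in footprints in ICM cells (0.99, SE 0.19, edgeR adjusted p 0.000115). The insulin receptor INSR fell in old mRNA-seq (-0.52, SE 0.13, edgeR adjusted p 0.00103) and was at 0.11 in ICM vs young (adjusted p 0.415).

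In ICM vs old mRNA-seq, edgeR gave a change of -0.98 for IGF1 (adjusted p 0.0146), -0.36 for IGF1R (7.74e-05), 0.25 for IGF2R (0.0122) and 0.62 for INSR (0.000105). The IGF1 call was lost with DESeq2 (adjusted p 0.0615) and without ICM replicate 2 (0.0721), and the IGF2R call without old replicate 2 (0.0930) or ICM replicate 2 (0.0514). IGF2R footprints rose there (0.56, SE 0.19, edgeR adjusted p 0.0374), and that call was lost with DESeq2 (adjusted p 0.0589) and without any single lysate of the 9 (adjusted p 0.0545 to 0.280).

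PAPPA, the protease that cuts IGFBP4 and IGFBP5, stood at 129, 158 and 156 CPM in young, at 280, 258 and 302 CPM in old and at 273, 302 and 265 CPM in ICM mRNA-seq. Its log2 change was 0.92 in old vs young (SE 0.08, edgeR adjusted p 8.85e-10) and 0.92 in ICM vs young (SE 0.08, edgeR adjusted p 5.51e-10). Footprints rose by 1.24 (SE 0.20, edgeR adjusted p 8.60e-06) and 1.30 (SE 0.23, edgeR adjusted p 5.13e-05). Old and ICM cells did not differ detectably in PAPPA (mRNA-seq log2 change 0.00, SE 0.08; fold interval 0.903 to 1.11). PAPPA2, a related protease, was low at 5.69 ± 0.784 CPM in young and fell in ICM to 1.51 ± 0.891 CPM (SD, n = 3; log2 change -1.95, SE 0.26, edgeR adjusted p 6.93e-07). It was also lower in ICM than in old cells (-1.77, SE 0.26, edgeR adjusted p 3.86e-06).

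STC1 and STC2 are secreted inhibitors of the pappalysins. STC1 mRNA stood at 19.5, 15.9 and 19.3 CPM in young, at 95.8, 105 and 115 CPM in old and at 100.1, 113 and 94.6 CPM in ICM. Its change was 2.54 in old vs young (SE 0.10, edgeR adjusted p 9.34e-16) and 2.502 in ICM vs young (SE 0.10, edgeR adjusted p 3.88e-16). The footprint changes of 2.67 (SE 0.42, edgeR adjusted p 4.72e-06) and 2.21 (SE 0.63, edgeR adjusted p 0.00775) rest on 5 to 118 reads a library in young and old and 13, 8 and 0 in ICM, the groups overlapped, and neither passed with DESeq2 (adjusted p 0.0755 and 0.275). The ICM call was also lost with young replicate 2 or 3, old replicate 1 or 3, or ICM replicate 1 left out (adjusted p 0.0564 to 0.199). STC2 mRNA rose in ICM (0.94, SE 0.06, edgeR adjusted p 1.56e-12), with footprints at 0.83 (SE 0.19, edgeR adjusted p 0.00145), a call lost without ICM replicate 1 (0.63, adjusted p 0.0850), and was at 0.09 in old vs young (adjusted p 0.164).

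CTSD, a lysosomal protease that can also cut IGFBPs, rose in old (0.85, SE 0.07, edgeR adjusted p 2.35e-10) and ICM mRNA-seq (1.32, SE 0.07, edgeR adjusted p 7.69e-14) and in footprints (1.31, SE 0.19, edgeR adjusted p 1.49e-06; and 1.71, SE 0.20, edgeR adjusted p 4.52e-08). LRP1, an endocytic receptor that binds IGFBP3, rose in old cells (mRNA 0.61, edgeR adjusted p 8.36e-05; footprints 0.62, edgeR adjusted p 0.00411) and ICM cells (mRNA 0.36, edgeR adjusted p 0.00829; footprints 0.53, edgeR adjusted p 0.0247). These LRP1 calls were fragile: the mRNA call in ICM was lost with DESeq2 (adjusted p 0.0646) and without young replicate 1 (0.0691), the footprint call in old without young replicate 2 (0.0809), old replicate 1 (0.0602) or old replicate 3 (0.0740), and that in ICM without any single lysate but ICM replicate 2 (0.0594 to 0.361). IRS2, an adaptor of the insulin and IGF receptors, rose in ICM mRNA-seq from 13.4 ± 0.848 to 31.6 ± 0.776 CPM (SD, n = 3; log2 change 1.23, SE 0.13, edgeR adjusted p 2.77e-08).

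Without the 3 lysates, the footprint changes in old vs young were 2.23 for IGF2, 1.28 for PAPPA, 1.37 for CTSD, 2.96 for STC1 and 0.64 for LRP1, all called, and IGF2R also passed (0.47, adjusted p 0.00927). In ICM vs young they were 1.35 for PAPPA, 1.72 for CTSD, 2.64 for STC1, 0.59 for STC2 and 0.84 for IGF2R, all called, while LRP1 did not pass (0.35, adjusted p 0.0922) and IGF2, with no ICM read left, did (adjusted p 0.0284). In ICM vs old IGF2R did not pass (0.37, adjusted p 0.145) and IGF2 did (adjusted p 2.08e-05). IGF1R footprints did not pass in any of the 3 comparisons, with or without these lysates. These fits of the IGF axis genes were added after the data had been seen.

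**Figure D5:**
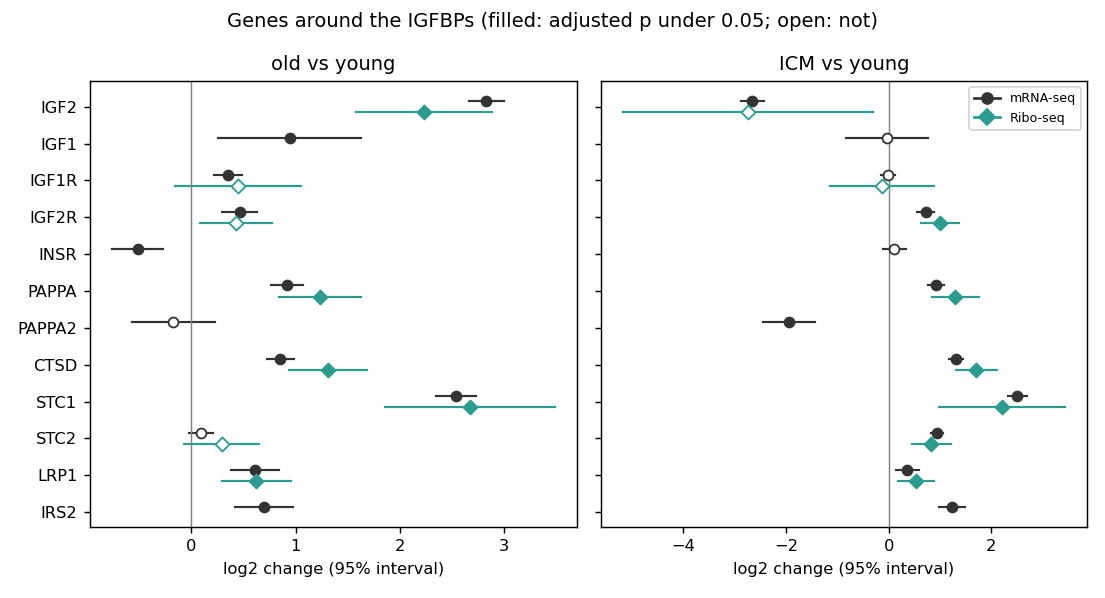
Fitted log2 change (x axis, with 95% interval) of named genes of the IGF axis in old vs young (left) and ICM vs young (right) cells, for mRNA-seq (circles) and Ribo-seq (diamonds, where tested); filled symbols passed an adjusted p of 0.05 in edgeR. IGF2 lies at 2.83 in old and at -2.65 in ICM mRNA-seq, while PAPPA, CTSD and STC1 lie above 0 in both.

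The genes whose mRNA profile over the 9 libraries lay nearest to each IGFBP were found from log2 CPM centred per gene, among 10809 genes averaging 5 CPM or more, and the measure is the root mean square difference. IGFBP3 lay nearest to PRKCE (0.15), SEMA6A (0.18) and SERPINE2 (0.22), and IGFBP7 to CCND2 (0.20), MGAT3 (0.24) and SEMA6A (0.29). IGFBP3 and IGFBP7, at 0.36, were the closest pair within the family, and IGFBP6 and IGFBP7, at 1.72, the furthest. IGFBP2 lay nearest to NBL1 (0.10), SFRP1 (0.10) and NFE2L3 (0.12), and its chromosomal neighbour IGFBP5 was at 0.88. IGFBP4 lay nearest to TNFRSF10B, RTL8C and TSPYL2 (0.05 each). IGFBP5 lay nearest to AJUBA (0.06), ACD (0.06) and PRMT1 (0.07), and IGFBP6 to SUPT7L, ELOVL6 and RPEL1 (0.06 each). These are descriptions over 9 libraries in 3 groups, and with profiles as flat as that of IGFBP6 many genes lie close.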

How the data were processed

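IMR90 mRNA-seq and Ribo-seq were analysed in 18 libraries, 9 of each, grouped and numbered by their titles, which give 3 replicates per condition. The series' design text gives 4 young, 4 old and 2 ICM samples for these assays; the titles were followed. The authors deposited estimated counts of reads per gene symbol, 1 column per transcript region, not scaled to depth. Per the study's methods, CDS footprints were analysed, and RNA-seq came from poly(A)-enriched RNA of part of each lysate. The sample labels instead name polyA RNA for Ribo-seq, total RNA for RNA-seq and a Trizol extraction. The submitters' processing notes name GRCh37, STAR 2.6.0c, featureCounts, DESeq2 and deepTools; which of them made these tables, and whether counting used strand, is not given in the sources used here. In Ribo-seq, 11.0% to 20.4% of non-zero values were not whole, so some reads were divided between features.

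CDS counts (Ribo-seq) and summed 5′UTR, CDS and 3′UTR counts (mRNA-seq) were rounded. The quasi-likelihood test of edgeR 4.0.16 was run in R 4.3.3 (glmQLFit and glmQLFTest, TMM, filterByExpr; all 9 libraries of an assay in 1 fit), two-sided, with Benjamini-Hochberg adjustment over all genes and a threshold of 0.05. Translational efficiency was the interaction of assay and condition in a fit of 18 libraries blocked on the lysate, since the methods say that each lysate gave a library of either kind (r of paired deviations -0.0622 to 0.115). Each SE was derived from the log2 change and the F statistic of its test. A fold interval is a normal approximation to the 95% interval from that SE, and can be narrower than the test implies. Shares carry exact binomial (Clopper-Pearson) 95% intervals. p-values measure the spread between independently grown replicates of IMR90 cells. The steps were tested on simulated data. Alternatives were DESeq2 1.42.0, its RLE scaling, other filters and thresholds, fits of 2 conditions, a replicate block, CDS-only mRNA counts, thinned Ribo-seq (46170 CDS reads), leaving out each lysate, and leaving out young 1, old 2 and ICM 3 together.

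The members and lists were chosen with earlier results of these data known. All members were named; of the IGF axis, per comparison, genes called in both assays or with an absolute mRNA log2 change over 1, plus ligands, receptors and PAPPA; and the 3 genes with the nearest mRNA profile. STC2 in old cells was named after its value was seen. Transcripts, sequences and coordinates are from GENCODE v44 on GRCh37, matched by symbol for all 6. Levels between genes were compared per coding length of the MANE transcript.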

Additional observations from a re-analysis of the deposited data

Results flagged for a closer look

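A pair of values lay outside the counts compared and above every young library. The antisense RNA IGFBP7-AS1, counted in the non-coding column of the tables, had 25.1, 29.96 and 33.1 mRNA-seq reads per 1e6 coding reads in young, 262, 235 and 297 in old (mean 265 ± 30.8, SD, n = 3) and 20.2, 23.0 and 22.2 in ICM. In proportion to the reads of IGFBP7 itself this was 5.91% to 7.50% in young, 6.88% to 9.55% in old and 6.996% to 8.83% in ICM, ranges that overlap. The sources used here do not say that reads were counted by strand, and without strand the reads of IGFBP7 and of its antisense RNA cannot be told apart. In Ribo-seq it had 1 read, in old replicate 3.

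Footprints in the 3′UTR of IGFBP3 averaged 231 ± 306 per 1e6 CDS footprints in old cells (SD, n = 3) and 14.7 ± 19.2 in young, with the lowest old library at 47.2 and the highest young one at 36.7. Old replicate 2, where 15.0% of reads lay in the CDS, gave the highest value, 585, and without it the old mean was 54.5. As a share of the footprints on IGFBP3 itself, the 3′UTR averaged 8.12% in old and 2.27% in young, with overlapping libraries (exact two-sided permutation test, p = 0.5).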

How the results depend on the processing

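Of 1020 alternative values for the members, 973 kept their direction and side of the threshold, 24 lost and 11 gained the call, and 12 changed sign, none of these 12 called. Requiring an absolute log2 change over 0.6 left 3 members called in mRNA-seq ICM vs old instead of 6, 4 instead of 6 in mRNA-seq old vs young (IGFBP5 and IGFBP6 lost), and 2 instead of 3 in footprints in ICM vs young (IGFBP5 lost). DESeq2, or an adjusted p under 0.15, called 1 member in translational efficiency in ICM vs young instead of 0. Of the IGF axis, leaving out 1 lysate gave 3 to 8 footprint calls in ICM vs young (lowest without ICM replicate 1), 3 to 8 in old vs young (lowest without old replicate 1) and 1 to 3 in ICM vs old, where DESeq2 and the replicate block each gave 1. Without the 3 lysates 10 were called in old vs young instead of 5 (added after seeing the data). The causes were not tested.

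Sign changes in translational efficiency were IGFBP4 in ICM vs young after thinning (-0.051), IGFBP6 in ICM vs young with no filter (-0.058), IGFBP2 in old vs young after thinning (-0.42) and over left-out lysates (-0.020 to 0.29), IGFBP3 in old vs young with no replicate block (0.081), without the 3 lysates (0.15) and over left-out lysates (-0.24 to 0.14), and, in ICM vs old, IGFBP2 (-0.034 to 0.42) and IGFBP4 (-0.29 to 0.089) over left-out lysates and IGFBP5 with no filter (-0.059) or CDS reads only (-0.069). Among axis genes, over left-out lysates, they were IGF1 (-0.37 to 0.34) and IGF1R (-0.014 to 0.0060, and 0.0057 with RLE scaling and 0.0058 with DESeq2) in ICM vs young mRNA-seq, IGF1R footprints in ICM vs young (-1.09 to 0.0082), and PAPPA in ICM vs old mRNA-seq (-0.057 to 0.059) and footprints (-0.14 to 0.10).

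Whether libraries with the same replicate number share more than that number is not known. The r of their deviations was -0.0403 to 0.0944 in mRNA-seq and 0.00209 to 0.0387 in Ribo-seq. The libraries paired by lysate gave -0.0622 to 0.115, so this measure cannot tell whether a batch was shared. With the replicate block, 4, 6 and 6 members were called in mRNA-seq and 3, 3 and 3 in Ribo-seq (ICM vs young, old vs young, ICM vs old), and IGFBP2 footprints in old vs young were at 0.69 (adjusted p 0.0785). Of the named IGF axis genes, STC1 footprints in ICM vs young (1.77, adjusted p 0.116) and IGF2R footprints in ICM vs old (0.60, adjusted p 0.0600) lost their call with it. Depth limits the Ribo-seq values: 3 reads amount to 1.75 to 64.9 CPM, depending on the library.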
